A study of Mus musculus with 30 samples.

Results

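The sarcomeric myosin heavy chains were followed as 7 genes, Myh1, Myh2, Myh3, Myh4, Myh7, Myh7b and Myh8, of 18194 genes named on the arrays. They were read through every probe set that the platform annotation assigns to 1 of these genes alone, which gave 10 of 45265 probe sets. The A arrays carried 8 of them, for Myh1, Myh2, Myh3, Myh4, Myh7 and Myh8, and the B arrays carried 2, for Myh4 and Myh7b. The choice used gene names only and no measured value.

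The samples were total RNA of mouse extraocular muscle in culture (these muscles turn the eyeball), labelled 0, 4, 12, 24 and 48 h, with 3 arrays per time on each of 2 Affymetrix array types. All groups share the organism, the tissue and the culture, and differ by time. The labels give no strain, age, treatment or event that starts the clock, and do not say whether replicates were separate cultures. P-values thus measure how far these arrays spread, which may be technical spread, and precision is limited by the number of arrays. The labels of 1 B array, replicate 1 at 0 h, disagree, since its title reads extraocular muscle and its source name leg muscle. Changes of named B probe sets against 0 h are thus given with and without it. The Myh4 probe set, too dim to be tested there, is the exception, and its values are printed.

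A myosin heavy chain is the motor subunit of the thick filament: its head pulls on actin, and its tail assembles into the filament. Muscle fibres are classed by the isoform they make. Myh7 encodes the slow chain, and Myh2, Myh1 and Myh4 the fast IIA, IIX and IIB chains. Myh3 and Myh8 encode the embryonic and perinatal chains, which are used during development and in regenerating fibres. Adult extraocular muscle is known for keeping developmental chains beside the adult ones, and for Myh7b, which is found in few other muscles, and the superfast chain Myh13, for which no probe set was named here. The genes of the fast and developmental chains form a cluster. In the mouse reference gene table the order was Myh3, Myh2, Myh1, Myh4, Myh8 and Myh13, with no other protein-coding gene between neighbours.

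The windows around the annotated starts of 4 chains are printed because 2 of these chains, Myh8 and Myh7, are those that changed most in the measurements below, and the other 2, Myh3 and Myh1, lie in the same gene cluster as Myh8. Each runs from 250 bases before to 50 bases after the start (RefSeq, GRCm38.p6), 5′ to 3′ on the strand of the gene. All 7 genes had a window in that table. Positions are counted from the start, with a minus sign before it. The Myh8 window is chr11:67276874-67277173 on the plus strand, that of Myh1 chr11:67199852-67200151 (plus), that of Myh3 chr11:67078050-67078349 (plus), and that of Myh7 chr14:54994500-54994799 (minus). Myh7 has 2 annotated starts, and the window of the downstream one is shown. Capitals mark the letters of an E-box (CANNTG, bound by Myod1 and its relatives), an MCAT element (CATTCC on either strand, bound by Tead factors), a MEF2 site and the 2 longer words named below.
Myh8: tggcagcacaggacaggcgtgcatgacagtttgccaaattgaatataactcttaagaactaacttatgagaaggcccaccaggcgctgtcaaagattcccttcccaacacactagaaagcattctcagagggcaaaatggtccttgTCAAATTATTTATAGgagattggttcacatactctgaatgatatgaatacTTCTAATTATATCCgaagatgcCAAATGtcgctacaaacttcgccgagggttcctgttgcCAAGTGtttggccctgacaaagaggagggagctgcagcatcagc
Myh1: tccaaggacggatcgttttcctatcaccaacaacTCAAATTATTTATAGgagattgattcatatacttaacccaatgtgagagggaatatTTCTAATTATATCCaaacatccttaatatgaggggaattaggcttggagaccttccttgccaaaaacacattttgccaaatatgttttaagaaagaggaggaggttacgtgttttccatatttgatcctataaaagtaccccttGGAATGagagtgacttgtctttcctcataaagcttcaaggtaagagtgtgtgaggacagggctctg
Myh3: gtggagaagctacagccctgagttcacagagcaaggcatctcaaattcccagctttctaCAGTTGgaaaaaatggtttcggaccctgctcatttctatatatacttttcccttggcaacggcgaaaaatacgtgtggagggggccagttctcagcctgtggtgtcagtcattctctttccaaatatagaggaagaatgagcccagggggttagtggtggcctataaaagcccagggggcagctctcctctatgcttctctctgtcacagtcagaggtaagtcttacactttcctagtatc
Myh7: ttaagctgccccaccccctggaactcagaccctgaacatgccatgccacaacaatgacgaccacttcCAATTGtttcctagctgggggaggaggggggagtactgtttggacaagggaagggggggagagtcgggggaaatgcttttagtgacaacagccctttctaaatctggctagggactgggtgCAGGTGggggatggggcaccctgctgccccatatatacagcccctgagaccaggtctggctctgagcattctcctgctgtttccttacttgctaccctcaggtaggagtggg
A word of 14 letters, TTCTAATTATATCC, stood at -54 to -41 in Myh8 and at -160 to -147 in Myh1. It was held by 4 of 32851 windows (0.0122%), those of Myh1, Myh2, Myh4 and Myh8. A word of 15 letters, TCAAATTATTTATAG, stood at -104 to -90 in Myh8 and at -216 to -202 in Myh1, and was held by 3 of 32851 windows (0.00913%), those of Myh1, Myh4 and Myh8. In all 3 its last 10 letters are the MEF2 match, and 3.19% of all windows held such a match. An E-box was found in 5 of 7 member genes, against 72.3% of all windows, and an MCAT element in 3 of 7 (Myh1, Myh4 and the other window of Myh7), against 14.7%. Neither word nor a MEF2 match was found in the windows of Myh3 and Myh7. Both words were picked after the sequences had been read, and a match describes letters only.

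The deposited intensities had been scaled to 1 mean per array, so each change is relative to the rest of the array. In RNA from a whole culture, fewer cells of a type and less RNA per cell cannot be told apart. Changes are given as log2 of intensity plus 16, which understates those of dim probe sets. Probe sets were tested when their mean over 15 arrays reached the 40th percentile of their type, which was an intensity of 101 for type A and 199.6 for type B. Of the 10 member probe sets 6 passed, 1 each for Myh8, Myh7, Myh3 and Myh7b and 2 for Myh1, and 4 did not. Levels of different probe sets are not compared, since each has its own brightness.

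Myh8, the perinatal chain, was about 4 times as bright at 24 and 48 h as at 0 h. Its 3 arrays read 281.1, 374.9 and 508.9 at 0 h, 484.2, 394.1 and 413.6 at 4 h, 1364.4, 855.7 and 652.6 at 12 h, 1852.5, 2084.2 and 1126.5 at 24 h, and 1520.6, 1375.6 and 1723.4 at 48 h. All values at 12, 24 and 48 h lay above all values at 0 and 4 h. Replicate 1 was highest at 12 h and replicate 3 was lowest at 12 and 24 h. Against 0 h, the log2 change was 0.18 ± 0.26 (SE) at 4 h, 1.24 ± 0.26 at 12 h, 2.07 ± 0.26 at 24 h and 1.98 ± 0.26 at 48 h. Myh8 passed limma's test at 24 h (adjusted p = 0.000204) and 48 h (adjusted p = 0.000121), and barely at 12 h (adjusted p = 0.0498). The 12 h call was lost in 19 of 24 alternatives, with limma adjusted p between 0.0127 and 0.23, and the 24 and 48 h calls in none of 24. Among the 19 were the fits without replicate 1 or 2 at 0, 12 or 24 h, without replicate 1 or 3 at 4 h and without any 48 h array. In order of its means, Myh8 was lowest at 0 h, then 4, 12, 48 and 24 h, and its values overlapped between 0 and 4 h and between 48 and 24 h.

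Myh7, the slow chain, followed a like course and had its highest mean at 48 h. The arrays read 213.6, 179.9 and 258.0 at 0 h, 295.1, 251.5 and 216.1 at 4 h, 507.8, 734.2 and 502.1 at 12 h, 910.4, 1026.4 and 551.6 at 24 h, and 1030.4, 1130.4 and 786.3 at 48 h. Every array from 12 h on was above every array at 0 and 4 h, while 12 h overlapped 24 h and 24 h overlapped 48 h. The log2 change against 0 h was 0.22 ± 0.22 (SE) at 4 h, 1.35 ± 0.22 at 12 h, 1.82 ± 0.22 at 24 h and 2.10 ± 0.22 at 48 h. Myh7 rose at 12 h (limma adjusted p = 0.025), 24 h (adjusted p = 0.000204) and 48 h (adjusted p = 1.68e-05). It also rose at 12 h against 4 h (log2 change 1.13 ± 0.22, limma adjusted p = 0.0382), the only step between neighbouring times that a tested heavy chain passed. At that step 0.0884% of A probe sets were called higher. The 12 h call was lost in 8 of 24 alternatives, among them without replicate 1 or 2 at 0 or 12 h. The step from 4 h was lost in 11 of 24, among them without replicate 1 at 0 or 48 h, any 4 h array or replicate 1 or 2 at 12 h. The 24 and 48 h calls were lost in none of 24.

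A probe set annotated to both Myh7 and Myh6, the cardiac alpha chain, was left out of the members, since it cannot tell them apart. It averaged 377 ± 37.6 at 48 h, 344 ± 179 at 24 h and 93.6 ± 42.7 at 0 h (SD, n = 3 each). Both probe sets of Myh6 alone stayed low, with no array above 34.0. The other shared probe set averaged 38.1 ± 5.80 at 48 h and 8.57 ± 5.84 at 0 h, below the filter on low values.

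Myh3, the embryonic chain, changed less. Its arrays read 4928.8, 5018.2 and 5040.3 at 0 h, 6447.2, 4100.8 and 6184.5 at 4 h, 9114.7, 8702.1 and 5982.4 at 12 h, 10018.0, 9349.5 and 6656.2 at 24 h, and 7322.0, 7262.8 and 6977.9 at 48 h. All arrays at 12, 24 and 48 h exceeded the 3 at 0 h, which lay close together, and replicate 3 was the lowest at 12 and 24 h. Myh3 rose at 24 h by a log2 change of 0.77 ± 0.18 (SE, limma adjusted p = 0.0179). The changes at 12 h (0.64 ± 0.18, limma adjusted p = 0.131) and 48 h (0.52 ± 0.18, adjusted p = 0.0998) did not pass. They did pass in 1 of 24 alternatives at 12 h and in 2 of 24 at 48 h. The 24 h call was lost without replicate 1 at 0 h and without replicate 1 or 2 at 24 h, with limma adjusted p up to 0.0986 over 24 alternatives.

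Myh1, the fast IIX chain, had 3 probe sets, of which 2 passed the filter and had no call at any time. The x_at probe set, whose suffix marks probes shared with other sequences, read 2546.3, 2920.7 and 1842.8 at 0 h, 3820.9, 1760.6 and 3608.7 at 4 h, 5205.9, 4473.4 and 2383.9 at 12 h, 4708.0, 5056.2 and 3399.8 at 24 h, and 3263.8, 3359.7 and 2072.0 at 48 h. Only the 24 h arrays were all above the 0 h arrays. The log2 change there was 0.85 ± 0.31 (SE), which did not pass (limma adjusted p = 0.121) unless only the 24 and 0 h arrays were fitted. The a_at probe set had means of 2145 ± 545, 3037 ± 1410, 3221 ± 865, 3059 ± 748 and 2391 ± 59.2 at 0, 4, 12, 24 and 48 h (SD, n = 3). Its times all overlapped, and its change at 24 h was 0.51 ± 0.28 on the log2 scale (limma adjusted p = 0.342). The third probe set lay between 3.7 and 56.9 in 15 arrays, below the filter. Heavy chain genes are alike in sequence, and the share of signal from a related chain was not tested.

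**Figure D1:**
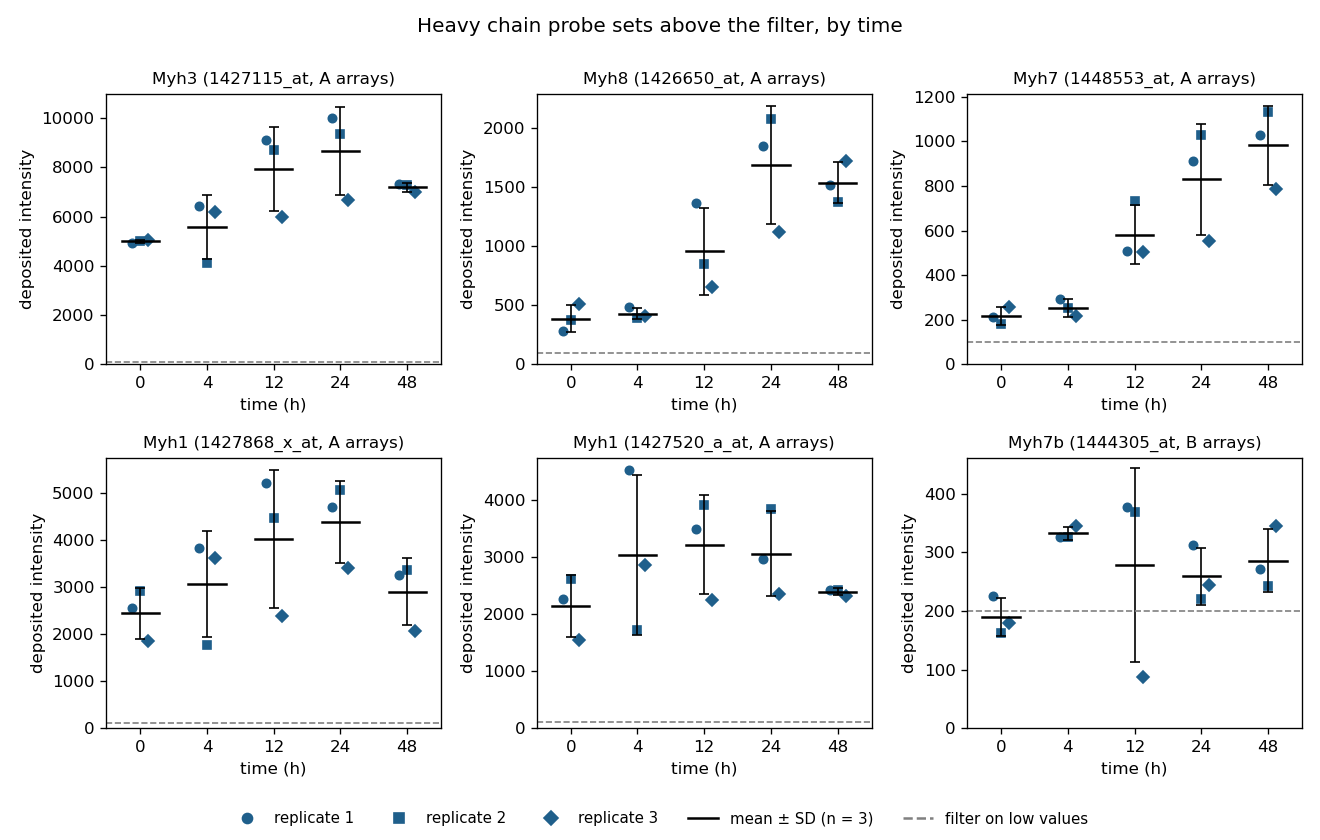
Deposited intensity (y axis, linear, from 0) against time in hours for the 6 heavy chain probe sets that passed the filter on low values. Points are arrays, bars are mean ± SD of 3 arrays and the dashed line is the filter. Myh8 and Myh7 lie higher on every array from 12 h on than on any array at 0 and 4 h, while the Myh1 a_at probe set has no time whose arrays all lie above those at 0 h.

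Myh7b, a slow-type chain, was measured on the B arrays. Its arrays read 225.4, 163.1 and 180.0 at 0 h, 326.8, 326.1 and 345.7 at 4 h, 377.7, 369.2 and 86.7 at 12 h, 313.2, 219.9 and 244.2 at 24 h, and 272.0, 241.8 and 345.7 at 48 h. The 4 and 48 h arrays were all above those at 0 h, and replicate 3 at 12 h was the lowest of all 15. No change passed: the log2 change was 0.77 ± 0.42 (SE) at 4 h (limma adjusted p = 0.996) and 0.55 ± 0.42 at 48 h (adjusted p = 0.753). Without replicate 1 at 0 h, whose source name is leg muscle, these changes were 0.90 and 0.68 and did not pass either. All later values were above all 0 h values for 4.95% of the B probe sets tested at 4 h and for 7.21% at 48 h, and 0% and 0.733% passed as higher.

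Myh2 and Myh4, the fast IIA and IIB chains, stayed below the filter on the A arrays. Myh2 read 10.5, 15.2 and 10.9 at 0 h, 21.0, 37.4 and 7.5 at 4 h, 35.2, 64.5 and 8.0 at 12 h, 44.7, 118.3 and 39.5 at 24 h, and 42.6, 12.8 and 25.9 at 48 h. The 24 h arrays were all above the 0 h arrays, with 1 of them over the filter, and with no filter the log2 change was 1.45 ± 0.44 (SE, limma adjusted p = 0.11). Myh4 lay between 1.7 and 45.2 on the A arrays. Its B probe set averaged 233 ± 28.8 at 24 h and 88.5 ± 42.3 at 0 h (SD, n = 3), with 24 h values of 201.5, 257.9 and 240.0 against 68.1, 137.1 and 60.3 at 0 h. These did not overlap, with or without the array of the leg muscle source name (68.1). With no filter, however, the log2 change of 1.32 ± 0.48 (SE) did not pass (limma adjusted p = 0.402). All 24 h values exceeded all 0 h values for 7.09% of the tested B probe sets and 11.5% of the tested A ones. The Myh2 and Myh4 probe sets, being below the filter, are not among those tested. Background-level signal is not told apart from expression by these files, which give no detection calls.

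**Figure D2:**
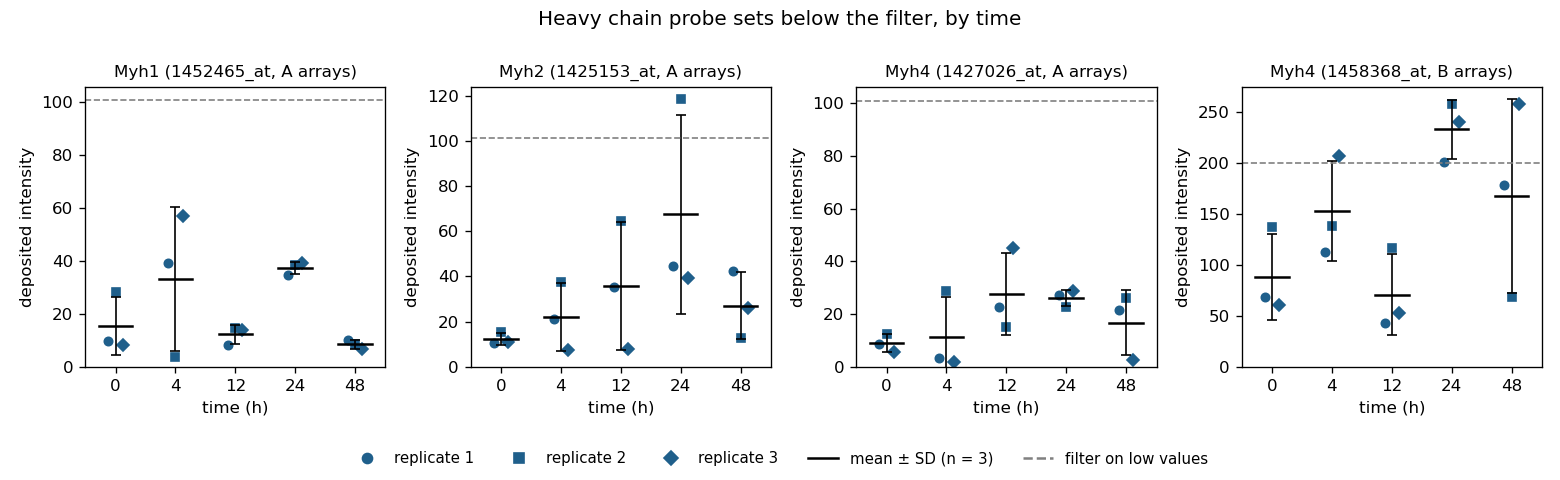
Deposited intensity (y axis, linear, from 0) against time in hours for the 4 heavy chain probe sets whose mean over 15 arrays was below the filter, which the dashed line marks. Points are arrays and bars are mean ± SD of 3 arrays. On the A arrays 1 value of Myh2, 118.3 at 24 h, is above the filter of 101.

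Counted over the 5 tested probe sets of the A arrays, 0 passed as higher at 4 h, 2 at 12 h (Myh7 and Myh8), 3 at 24 h (Myh3, Myh7 and Myh8) and 2 at 48 h (Myh7 and Myh8). Of all 13577 A probe sets tested, 0% were called higher at 4 h, 0.25% at 12 h, 3.23% at 24 h and 4.2% at 48 h. None of the 5 was called lower at 4, 12, 24 or 48 h, where 0.0295%, 0.118%, 2.33% and 2.5% of A probe sets were. All later values exceeded all 0 h values for 0, 3, 4 and 3 of the 5 at the 4 times, against 6.12%, 7.27%, 11.5% and 13.5% of all tested. The median change of all A probe sets was -0.01 on the log2 scale at 24 h. In limma's F-test for any change over time, which 7.59% of A probe sets passed, Myh8 (adjusted p = 6.56e-05), Myh7 (adjusted p = 1.93e-05) and Myh3 (adjusted p = 0.0327) passed, and Myh3 lost this call in 13 of 23 alternatives, among them without any 0 or 48 h array or replicate 1 or 2 at 12 or 24 h. Neither 24 h against 12 h nor 48 h against 24 h gave a call for a heavy chain, where 0.0221% and 0.545% of A probe sets were called higher.

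**Figure D3:**
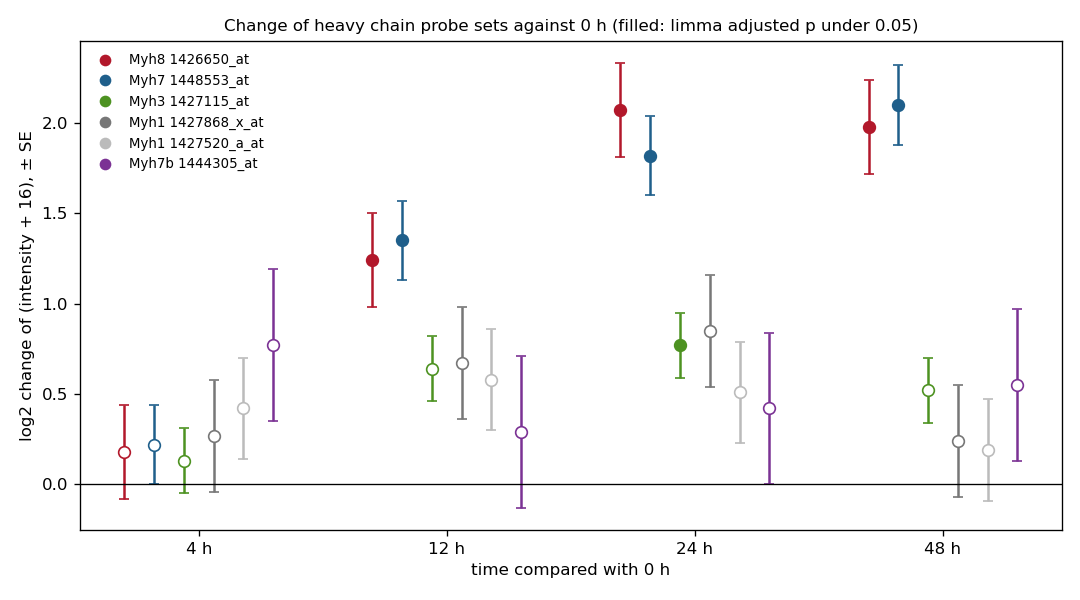
Log2 change of intensity plus 16 against 0 h (y axis, ± SE) at 4, 12, 24 and 48 h (x axis) for the 6 tested heavy chain probe sets, with filled points where limma's adjusted p was under 0.05. Myh8 and Myh7 reach 1.98 and 2.10 at 48 h, above the other 4 probe sets, which lie between 0.19 and 0.55.

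Whether the chains' probe sets changed by unequal amounts was tested within each A array, as the log2 difference between a pair of chains. An exact permutation test over 1401400 assignments of the 15 arrays to the 5 times was used, with adjustment over 6 pairs. The test asks whether the difference varied over the 5 times. Myh1 was read through its x_at probe set. On every A array the probe sets of Myh3 and Myh1 were brighter than those of Myh8 and Myh7. Whether bright probe sets understate a change was not tested. Nor was the share of signal that the x_at probe set takes from related chains. The shifts thus describe probe sets, and unequal change of the chains themselves was not tested apart from these limits. Relative to Myh3, Myh8 shifted by 1.29 at 24 h and 1.45 at 48 h on the log2 scale against 0 h (exact permutation p = 0.000364, adjusted 0.00109). On the 3 arrays at 24 h that shift was 1.25, 1.51 and 1.12, and at 48 h 1.41, 1.28 and 1.66, so every array showed it. Myh7 shifted against Myh3 by 1.05 and 1.57 at these times (exact permutation p = 0.000325, adjusted 0.00109). Against Myh1, Myh8 shifted by 1.22 and 1.74 (exact permutation p = 0.00298, adjusted 0.00554) and Myh7 by 0.98 and 1.85 (exact permutation p = 0.00369, adjusted 0.00554).

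Myh8 and Myh7 could not be told from each other in this way. Their difference shifted by 0.24 at 24 h and -0.12 at 48 h (exact permutation p = 0.768, adjusted 0.768), with an SD between arrays of up to 0.643. Myh3 and Myh1 shifted by -0.08 and 0.28 (exact permutation p = 0.438, adjusted 0.525). A p that misses the threshold does not show that they act alike, and the sign of the 24 h shift of Myh3 against Myh1 turned under quantile normalization, with the a_at probe set of Myh1 and without replicate 3 at 0 h. The same 4 of these 6 pairs passed in 23 alternatives, with adjusted p of at most 0.0233. Some alternatives could hardly change this. Median scaling nearly cancels in a difference within an array, and the filter settings alter only which pairs enter the adjustment. With no filter, pairs with Myh2 and Myh4 entered as well.

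**Figure D4:**
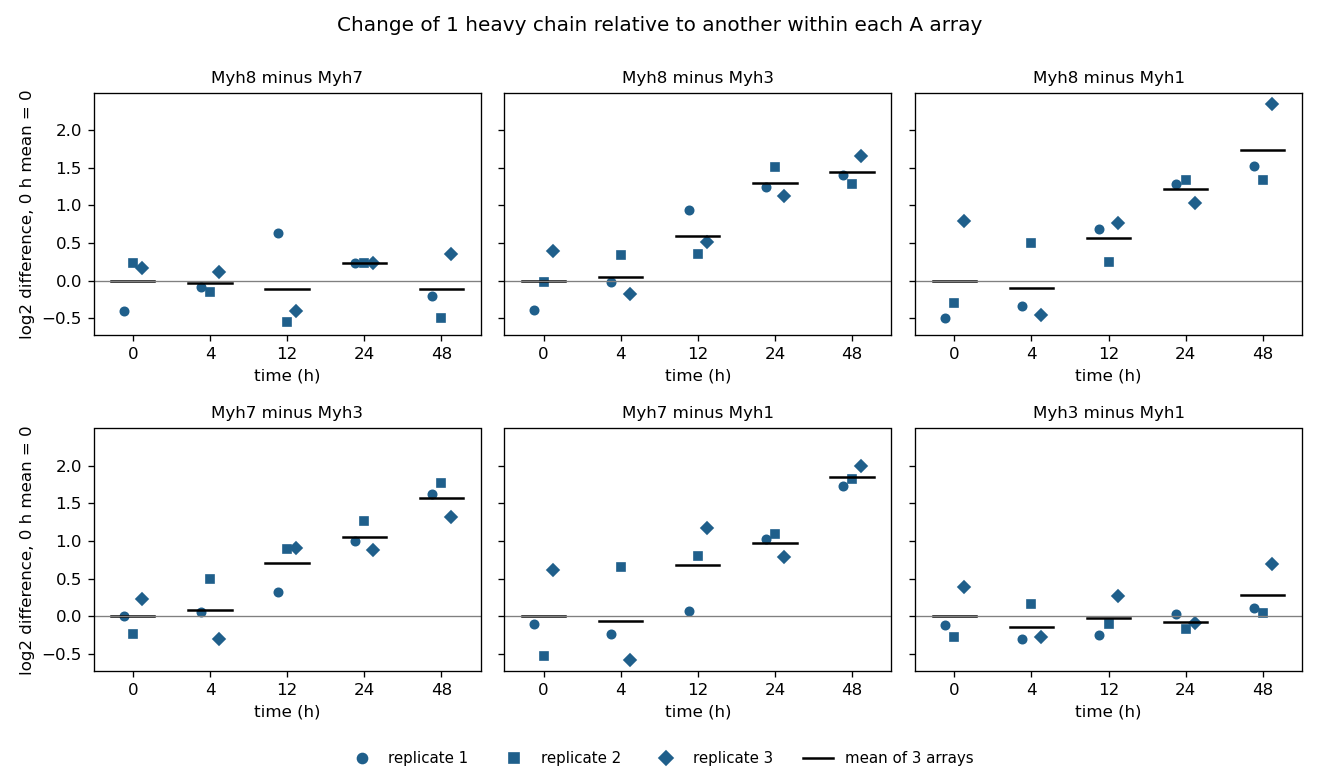
Within-array log2 difference between 2 heavy chains (y axis, mean at 0 h set to 0) against time in hours on the A arrays. Points are arrays and bars are means of 3. The means of Myh8 and Myh7 against Myh3 and Myh1 lie above 0 from 12 h on, and between 1.45 and 1.85 at 48 h. At 12 h the arrays of these pairs still overlap those at 0 h, except for Myh7 minus Myh3. Myh8 minus Myh7 and Myh3 minus Myh1 scatter around 0.

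Over the 15 A arrays, which share times and scaling, Myh7 correlated with Myh8 at Pearson r 0.93, and with the times' means removed at 0.394. For Myh3 these values were 0.839 and 0.855 with the x_at probe set of Myh1, 0.834 and 0.664 with Myh8, and 0.782 and 0.492 with Myh7. For the Myh1 pair of probe sets they were 0.856 and 0.857. Among 7879 genes measured on the A arrays, the 4 most like Myh7 were Myoz2, a Z-disc protein of slow fibres (r 0.976), Tnnc2, fast troponin C (0.975), Scn3b, a sodium channel subunit (0.972), and Itm2a, a membrane protein (0.966). Those most like Myh8 were Limch1 (0.971), the Z-disc actinin Actn2 (0.967), Itm2a (0.961) and Myoz2 (0.957). Those most like Myh3 were fast troponin T Tnnt3 (0.956), Rassf7 (0.955) and the small heat shock proteins Cryab (0.953) and Hspb2 (0.941). All are correlations across 15 arrays, and are a description.

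The light chains sit on the neck of the heavy chain. Of 8 genes on their list, 4 were measured above the filter, Myl1, Myl4, Mylpf and Mylk3. At 24 h 2 of them rose, beside the 3.23% of A and 0.696% of B probe sets called higher. Mylk3 is a light chain kinase and not a light chain. Myl1, the fast essential chain, averaged 13410 ± 1750 at 24 h and 8582 ± 2140 at 0 h (SD, n = 3; log2 change 0.66 ± 0.15, SE; limma adjusted p = 0.0121). Myl4, the embryonic and atrial chain, averaged 13050 ± 2340 and 8801 ± 2330 (0.58 ± 0.16, limma adjusted p = 0.0451), and its arrays overlapped. Mylpf, the fast regulatory chain, changed by 0.32 ± 0.15 and did not pass (limma adjusted p = 0.255). Mylk3, on the B arrays, changed by -0.29 ± 0.36 (limma adjusted p = 0.872). Without the array of the leg muscle source name its change was -0.33 ± 0.42 (limma adjusted p = 0.873). The list's median, with Mylk3 included, was 0.45. Its count was 0 with median scaling and without replicate 1 or 2 at 0 h or replicate 2 at 24 h, and 1 with no filter, a 20th percentile filter, the replicate block, no trend or only the times compared, and when any of 6 other A arrays was left out.

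Among 7 measured genes of the thick filament and M-band, 3 rose at 24 h, with a median log2 change of 1.10. At that time 3.23% of A and 0.696% of B probe sets were called higher. Mybph, a myosin-binding protein, averaged 7852 ± 2090 at 24 h and 3569 ± 530 at 0 h (SD, n = 3; log2 change 1.11 ± 0.19, SE; limma adjusted p = 0.00211). The M-band proteins Myom1, at 490 ± 242 against 161 ± 48.4 (limma adjusted p = 0.0271), and Myom2, at 1002 ± 266 against 449 ± 32.0 (adjusted p = 0.0369), also rose. At 48 h Myom1 did not pass (0.83 ± 0.36, limma adjusted p = 0.204). Ttn changed by -0.18 ± 0.39 and Mybpc3 by 0.14 ± 0.21 at 24 h, and neither passed. Myom3, on the B arrays, changed by 0.46 ± 0.45 at 24 h, or 0.63 ± 0.51 without the array of the leg muscle source name, and did not pass. Mybpc1, the slow myosin-binding protein C, was measured on the B arrays and passed at 48 h, where it averaged 2453 ± 379 against 721 ± 561 at 0 h (log2 change 2.01 ± 0.42, limma adjusted p = 0.0306), as did 0.733% of B probe sets. Without the array of the leg muscle source name its change was 1.92 ± 0.49 and did not pass (limma adjusted p = 0.125), and the call was also lost without replicate 2 at 0 h or any 48 h array, and with no trend, no filter or only the times compared. The 24 h count was 1 with no filter, without replicate 1 or 2 at 0 h, or without replicate 1 or 2 at 24 h, and 2 with median scaling, quantile normalization, no trend or only the times compared, and without replicate 3 at 0 h.

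Of 12 measured fast fibre genes, 9 rose at 24 h (median log2 change 1.17), and of 10 slow fibre genes, 4 did (median 0.45). Tnnc2 averaged 7057 ± 2130 at 24 h and 2602 ± 757 at 0 h (SD, n = 3; log2 change 1.42 ± 0.21, SE; limma adjusted p = 0.000645), and Pgam2, the muscle phosphoglycerate mutase, 1250 ± 466 and 378 ± 144 (1.67 ± 0.28, adjusted p = 0.00199). On the slow side, Myoz2 averaged 1776 ± 547 and 429 ± 83.2 (1.98 ± 0.21, limma adjusted p = 4.66e-05), and myoglobin, Mb, 2885 ± 802 and 1029 ± 511 (1.53 ± 0.28, adjusted p = 0.00314). The slow troponins Tnnt1, Tnni1 and Tnnc1 did not pass, and Tpm3, the slow tropomyosin, had a log2 change of -0.25 ± 0.13 (SE) that did not pass either (limma adjusted p = 0.296). In the fast list Tpm1 (0.03 ± 0.13), Myoz1 (-0.15 ± 0.19) and Mylpf (0.32 ± 0.15) did not pass (limma adjusted p = 0.931, 0.737 and 0.255). The 4 slow genes that rose were Casq2, Myoz2, Csrp3 and Mb. Over 39 alternatives the fast count lay between 5 and 10 and the slow count between 4 and 6. The fast count was 6 without replicate 1 at 0 or 24 h and 5 without replicate 2 at 24 h, and the difference between the lists was not tested. These counts stand beside the 3.23% of A and 0.696% of B probe sets called higher at 24 h, and they are not independent of earlier results of these data.

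**Figure D5:**
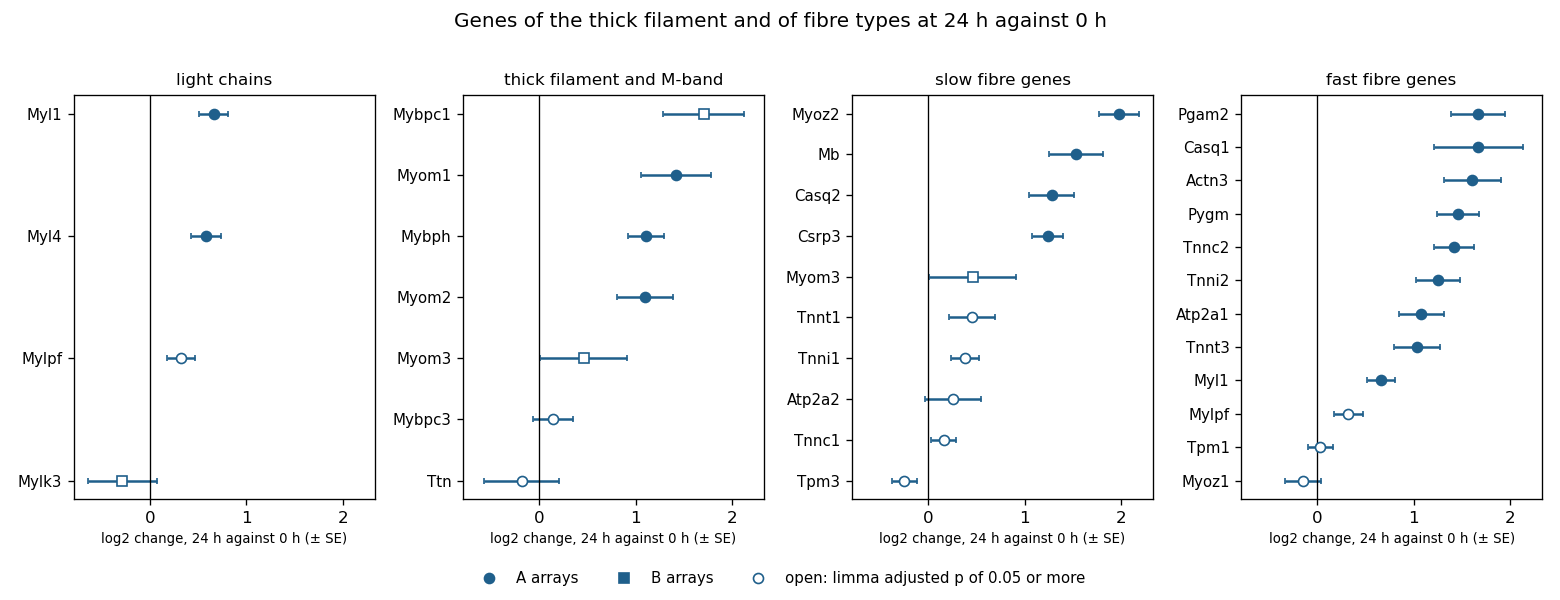
Log2 change of intensity plus 16 at 24 h against 0 h (x axis, ± SE) for the measured genes of 4 lists, with filled marks where limma's adjusted p was under 0.05. Circles are A array and squares B array probe sets. In the fast list 9 of 12 marks are filled and in the slow list 4 of 10.

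Of 25 measured regulators of heavy chain genes, 0 rose and 1 fell at 24 h, with a median log2 change of 0.06. Hdac5, a histone deacetylase that represses Mef2 factors, averaged 667 ± 74.3 at 24 h and 967 ± 89.9 at 0 h (SD, n = 3; log2 change -0.53 ± 0.13, SE; limma adjusted p = 0.0214), where 2.33% of A probe sets were called lower. At 48 h, where 2.5% were, Hdac5 (-0.57 ± 0.13, limma adjusted p = 0.0115) and Myod1, the myogenic activator (-0.73 ± 0.18, adjusted p = 0.0232), fell, and Mef2c, the muscle enhancer factor, was higher (0.76 ± 0.21, adjusted p = 0.0372), which is 1 of 25 regulators beside the 4.2% of A probe sets called higher. At 24 h Mef2c averaged 3109 ± 506 against 1884 ± 431 at 0 h and just missed the threshold (limma adjusted p = 0.0507). Hdac5 lost its 24 h call without replicate 1 or 2 at 0 h or at 24 h, and with only the times compared. Its 48 h call was lost without replicate 2 at 0 h and without replicate 1 or 3 at 48 h. Myod1 lost its 48 h call without replicate 1 or 2 at 0 h, or replicate 1 or 3 at 48 h. Mef2c lost its call without replicate 1 or 3 at 0 h or any array at 48 h, and with median scaling, no filter or no intensity trend.

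Of 6 measured genes of myosin folding and turnover, none passed limma's test at 24 h. Unc45b, the chaperone of the myosin head, averaged 5573 ± 786 at 24 h and 3219 ± 921 at 0 h on the B arrays (SD, n = 3; log2 change 0.82 ± 0.34, SE; limma adjusted p = 0.402). Without the array of the leg muscle source name its log2 change was 0.89 ± 0.40 (adjusted p = 0.484). Trim63, a ubiquitin ligase that acts on thick filament proteins, averaged 2957 ± 1620 and 1515 ± 351, a log2 change of 0.82 ± 0.34, or 0.65 ± 0.38 without that array, neither of which passed (limma adjusted p = 0.398 and 0.626). The nonmuscle heavy chains did not pass at 24 h: Myh9 changed by -0.06 ± 0.11, Myh10 by 0.11 ± 0.18 and Myh14 by 0.05 ± 0.25 on the log2 scale (limma adjusted p = 0.84, 0.9 and 0.947). Without the array of the leg muscle source name Myh10, on the B arrays, changed by 0.07 ± 0.20.

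All 10 markers of skeletal muscle passed the filter, and their summed intensity ranged from 48240 to 63470 at 24 h and from 44030 to 58100 at 0 h, so the ranges overlapped. Their median log2 change at 24 h was 0.04, and 2 rose. These were Actn2 (1.93 ± 0.25, limma adjusted p = 0.000258) and Tnnt3 (1.03 ± 0.24, adjusted p = 0.0177). At 48 h the same 2 rose and Myod1 fell. Tnnt3 lost its 24 h call in 4 of 24 alternatives and its 48 h call in 8 of 24. Of 9 markers of smooth muscle and pericytes on the A arrays, 7 passed the filter, and 4 rose at 24 h, Tagln, Smtn, Pdgfrb and Mcam, beside the 3.23% of A probe sets called higher. The other measured members did not pass at 24 h: Acta2 changed by 0.03 ± 0.20, Rgs5 by -0.35 ± 0.34 and Cspg4 by 0.18 ± 0.24. At 48 h 3 rose, Tagln, Pdgfrb and Mcam, beside the 4.2% of A probe sets called higher there. Acta2 and Rgs5 changed by -0.16 and -0.20 at 48 h, and Smtn and Cspg4 by 0.37 and 0.40, none of which passed. The list's summed intensity was 19200 to 20630 at 24 h and 12700 to 19170 at 0 h. The smooth muscle heavy chain Myh11 and Cnn1, defining genes of that type, were below the filter, with no array above 36.6. The neuronal marker Tubb3 rose at 48 h, to 277 ± 28.5 against 139 ± 23.2 at 0 h (SD, n = 3; log2 change 0.93 ± 0.16, SE; limma adjusted p = 0.00178), a call lost in 0 of 24 alternatives. On the A arrays 5 glial and neuronal markers summed to between 494.9 and 519.6 at 48 h and between 337.9 and 380.2 at 0 h. Of these, 3 were below the filter there, Rbfox3, S100b and Snap25, with no A array above 49.2. On the B arrays Rbfox3 passed the filter and averaged 1116 ± 154 at 48 h and 1228 ± 281 at 0 h. Its log2 change was -0.12 ± 0.27 (limma adjusted p = 0.946), or 0.03 ± 0.30 without the array of the leg muscle source name (adjusted p = 0.989). The part of smooth muscle, pericyte or neural cells in the heavy chain results was not tested. Of 6 heart markers 5 were below the filter (Myh6, Myl7, Nppa, Ryr2 and Tnni3), with no array above 95.8. Of the other lists, 2 of 7 fibroblast, 1 of 6 endothelial, 1 of 5 immune, 2 of 5 glial and neuronal and 0 of 3 adipocyte genes on the A arrays passed the filter. With B probe sets included, 4 fibroblast and 3 glial and neuronal genes were measured, and no fibroblast gene passed limma's test at 24 or 48 h.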

How the data were processed

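Total RNA of cultured mouse extraocular muscle was measured on 15 A and 15 B arrays, with 3 per time and type, per the labels. The deposited files hold 1 linear intensity per probe set, which the authors had scaled so that the mean without the lowest and highest 2% was 500.2 on every A and 500.1 on every B array. Not given in the sources used here are the software, the summary method and detection calls. Probe sets were named from the platform annotation.

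The log2 of intensity plus 16 was fitted with 1 mean per time over all 15 arrays of a type (limma 3.58.1 in R 4.3.3, eBayes with an intensity trend), after leaving out 64 control probe sets per type and those below the 40th percentile, which left 13577 A and 13506 B probe sets. P-values were adjusted over all of these in each comparison, with a threshold of 0.05. The fit and the pair test were tested on simulated data. Alternatives were pseudocounts 1 and 64, no filter or a 20th percentile filter, quantile and median scaling, the replicate number as a block, no trend, a fit of only the 2 times compared, and leaving out each array. Applying them to the gene lists, and the other Myh1 probe set in the pairs, were added after seeing the data.

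The members and lists were chosen with earlier results of these data known. All member probe sets are described. In each list up to 4 genes with the largest moderated statistic at 24 h were eligible for naming, and genes named beyond these were chosen after their values were seen. A gene was read through its probe set with the highest mean. Likeness is Pearson's r of the log2 values for members that passed the F-test. Figures were drawn with matplotlib 3.10.9.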

Additional observations from a re-analysis of the deposited data

How the results depend on the processing

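At 24 and 48 h against 0 h the calls of Myh8 and Myh7 held in 24 of 24 alternatives. The same 4 of the 6 reported pairs passed in each of the 23 run for the pairs, some of which could hardly change them. The count at 12 h against 0 h, 2 as reported, was 1 with pseudocount 1, quantile normalization or a 20th percentile filter, and 0 with median scaling, no filter, no intensity trend or only the times compared. Leaving out 1 array gave between 0 and 3, with 0 without replicate 1 or 2 at 0 h or 12 h. Over all A probe sets the share called in either direction at 12 h lay between 0% and 2.03%. The count at 12 h against 4 h, 1 as reported, was 0 with median scaling, no filter, no intensity trend or only the times compared, and between 0 and 2 with 1 array left out. With the replicate number as a block, the 12 h against 0 h count was 1 in place of 2, the loss being Myh8, and no other count of heavy chain calls or pairs changed. Whether the numbers pair some of the arrays was not settled. Deviations of same-numbered arrays correlated at -0.364 to 0.421 on the A arrays, with 10 of 30 over 0.1. On the B arrays they correlated at -0.101 to 0.113, with 1 of 30 over 0.1. No correlations of differently numbered arrays stand beside these values, so they cannot decide it. The array most like each array had its own number for 7 of 15 A and 3 of 15 B arrays.

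Some log2 changes that passed no test turned sign when 1 array was left out. Their ranges were -0.026 to 0.385 for Myh8 at 4 h against 0 h and -0.355 to 0.085 at 48 h against 24 h, and -0.060 to 0.311 for Myh3 at 24 h against 12 h. For the a_at probe set of Myh1 they were -0.029 to 0.347 at 48 h against 0 h, -0.198 to 0.495 at 12 h against 4 h and -0.301 to 0.107 at 24 h against 12 h, and for its x_at probe set -0.157 to 0.404 at 24 h against 12 h. For Myh7b they were -0.036 to 0.934 at 12 h against 0 h, -0.810 to 0.159 at 12 h against 4 h and -0.516 to 0.454 at 24 h against 12 h. The 24 h shift of Myh3 against Myh1, -0.08 as reported, was 0.046 with quantile normalization, 0.259 with the a_at probe set of Myh1, and -0.217 to 0.116 with 1 array left out. The causes of these differences were not tested. Median scaling moved the median change of all A probe sets at 48 h against 0 h by -0.101 on the log2 scale, and the calls there were 340 higher and 457 lower, against 570 and 339 as reported. Under it Myh8 and Myh7 changed by 1.87 and 1.99 there and still passed. This is 1.96 and 2.08 above the median of all A probe sets, as in the reported values. That match follows from the scaling, which moves all probe sets of an array together, and is no separate check. Signal below the filter limits Myh2, Myh4 and the third Myh1 probe set, and signal near it limits Myh7b. All changes are limited by 3 arrays per time.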
